A study of Homo sapiens
Mus musculus with 24 samples.

Results

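The genes described here are the DNA replication and mitosis genes of the human tumor cells. They were taken from a list of 44 symbols, 20 for replication and 24 for mitosis, and 43 of these are among the symbols of the human table, which holds 18880 genes. KIF23, a kinesin of cell division, is not listed there under that symbol and was not analysed here. All 43 passed the filter on low counts, and the lowest raw count of any of them in a library was 48, for CCNE1. The replication and mitosis genes were set side by side over the 5 groups of tumors.

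MDA-MB-231 cells, a human triple negative breast cancer line, were injected under the skin of B6/Rag1KO female mice, which lack mature T and B cells. Each tumor was therefore human cancer tissue with a murine host stroma, and its RNA was sequenced as a 3′ tag library and counted against both genomes. CTRL mice (4 tumors) were fed a high-fat diet and given saline by weekly intraperitoneal injection. Chemo mice (5 tumors) had the same diet with doxorubicin and cyclophosphamide injected weekly, MC mice (5 tumors) had the high-fat diet with moringa seed extract concentrate, and MC + Chemo mice (6 tumors) had both. Lean mice (4 tumors) ate the lean diet, served as the diet control and were not part of the randomization. All tumors were of 1 cell line, given to mice that were 14 weeks old. Each library is from the tumor of a separate mouse, whose number follows the group in its name here. The tumor MC + Chemo 5 is placed in its group by its title, while its group field names MC alone. For the genes named here that edgeR called in MC + Chemo against CTRL, the adjusted p without this tumor is also given. Group means and the other comparisons of MC + Chemo include it. Lean 3, MC 41 and MC 42 had an extra RNA cleanup.

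A cell copies its DNA in S phase and parts the copies in mitosis, and the genes for the 2 steps are switched on by different regulators. E2F factors drive the replication genes at the G1 to S transition, whereas the MYB-MuvB and FOXM1 complexes drive the mitotic genes later, in G2 and M. Transcripts of both sets are used as measures of proliferation in breast tumors. In bulk tissue, fewer cycling cells and less RNA per cycling cell cannot be told apart.

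Human counts ran from 7796231 to 17621273 per library and made up 47.8% (MC 41) to 74.0% (MC + Chemo 25) of all counts. The cell line's markers VIM, CD44, CAV1, AXL, EGFR and MET were present in every library. Levels below are normalized counts, that is, counts divided by a size factor of the library. Fold changes are log2 values with the standard error (SE) of an edgeR quasi-likelihood fit to all genes. Their p values were adjusted by the Benjamini-Hochberg method over the 16434 genes tested, or over 16588 for Lean, and called means an adjusted p below 0.05. The comparisons of Chemo, MC, MC + Chemo and Lean with CTRL share the same 4 CTRL tumors.

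Those 4 CTRL tumors did not lie together. The mitosis level of a library, the mean log2(normalized count + 1) over the 23 mitotic genes, was 10.12 in CTRL 44 and 10.09 in CTRL 17, the highest of all 24 libraries. It was 9.58 in CTRL 31 and 9.46 in CTRL 70, within the range of the other groups. CTRL 44 had the highest level of all libraries in 18 of the 43 genes and CTRL 17 in 7. The replication level over 20 genes was 8.95 in CTRL 44, again the highest of all, but 8.39 in CTRL 17, and 8.37 in CTRL 31, with CTRL 70 between them and CTRL 44. CTRL 17 thus had high mitotic and ordinary replication levels, and CTRL 44 was high in both. The same 2 tumors had the most VIM, at 71918 and 50209 normalized counts against 10488 in CTRL 31 and 9837.5 in CTRL 70. In the host, the endothelial marker Pecam1 was at 111 in CTRL 17 and 670 in CTRL 44, against 893 and 821 in CTRL 31 and CTRL 70. Another endothelial marker, Cdh5, was at 34.6 in CTRL 17 but at 542 in CTRL 44, against 406 and 543, so that only CTRL 17 was low in both. The part of these differences between CTRL tumors in the results below was not tested beyond leaving out each tumor in turn.

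**Figure D1:**
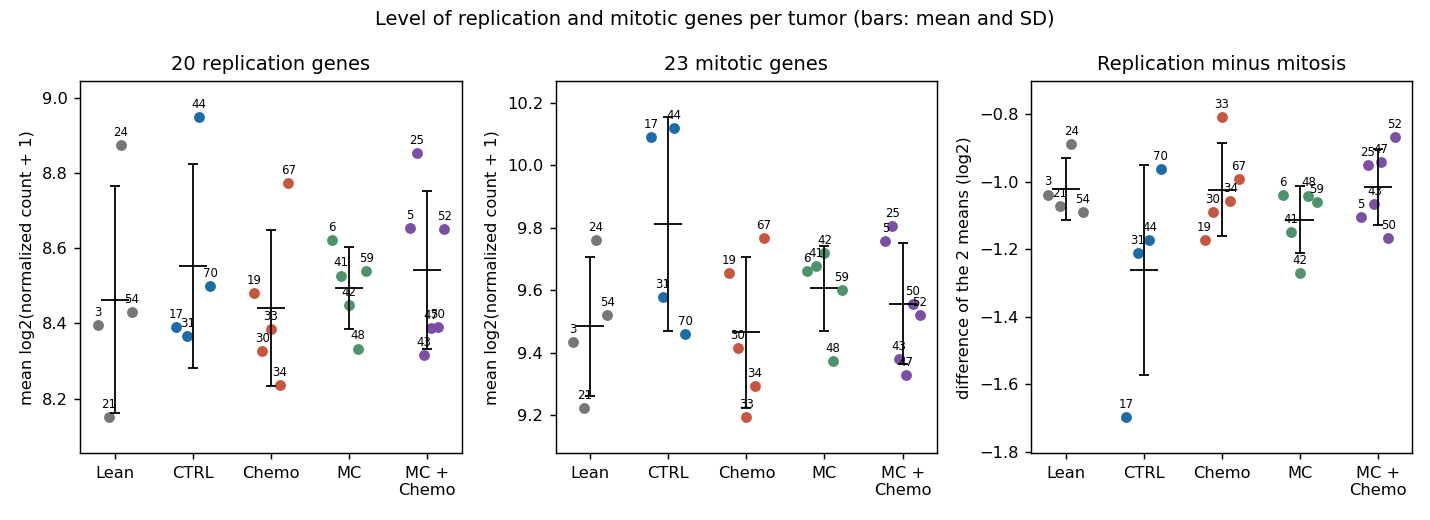
Replication level, mitosis level and their difference in each tumor (y axes: mean log2 of the normalized count plus 1, and the difference of the 2 means), by group on the x axis. Each point is 1 tumor with its mouse number, and the bars are the group mean and SD. CTRL 17 and CTRL 44 stand above all other tumors in the mitosis level (10.09 and 10.12), and CTRL 17 is the lowest of all in the difference (-1.70).

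The mean mitosis level was below that of CTRL in each of the other groups, the mean replication level was close to that of CTRL, and the tumors of all groups overlapped with CTRL in both. The mitosis level was 9.81 ± 0.34 in CTRL (mean ± SD, n = 4), 9.61 ± 0.14 in MC (n = 5), 9.56 ± 0.19 in MC + Chemo (n = 6), 9.49 ± 0.22 in Lean (n = 4) and 9.46 ± 0.24 in Chemo (n = 5). The lower CTRL tumors, at 9.58 and 9.46, lay inside the ranges of all 4 other groups. The replication level was 8.55 ± 0.27 in CTRL, 8.54 ± 0.21 in MC + Chemo, 8.49 ± 0.11 in MC, 8.46 ± 0.30 in Lean and 8.44 ± 0.21 in Chemo. Neighbours in either order did not differ beyond their spread.

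The difference of the 2 levels, replication minus mitosis, was -1.26 ± 0.31 in CTRL, -1.11 ± 0.10 in MC, -1.02 ± 0.14 in Chemo, -1.02 ± 0.11 in MC + Chemo and -1.02 ± 0.09 in Lean. The group means lay above that of CTRL by 0.15 for MC and by 0.24 for each of the others. CTRL 17 carried much of this gap, with -1.70 against -1.21, -1.17 and -0.96 in the other CTRL tumors. Without CTRL 17 the gap was 0.09 for Lean and for Chemo, 0.0026 for MC and 0.10 for MC + Chemo. Restricting replication to the 10 MCM, RRM, CDC6 and TYMS genes gave levels of 9.40 ± 0.25 in CTRL, 9.39 ± 0.21 in MC + Chemo, 9.34 ± 0.16 in MC, 9.33 ± 0.31 in Lean and 9.24 ± 0.22 in Chemo.

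By fold change, most mitotic genes stood below CTRL in all 4 groups, and most replication genes did so in Chemo, MC and Lean but were evenly split in MC + Chemo. In Chemo, 23 of 23 mitotic genes were lower (median log2 fold change -0.38), and 17 of 20 replication genes were lower (median -0.16). In MC + Chemo, 22 of 23 mitotic genes were lower (median -0.27) and 10 of 20 replication genes were lower (median 0.00). In MC the counts were 22 of 23 (median -0.21) and 15 of 20 (median -0.07), and in Lean 23 of 23 (median -0.36) and 16 of 20 (median -0.09). Over all genes tested the medians were -0.02 in each of the 4 comparisons and the shares lower were 52.3%, 53.1%, 52.5% and 52.5% for Chemo, MC, MC + Chemo and Lean. Because the genes of a list vary together within a tumor, these counts are descriptions of these tumors and carry no test.

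**Figure D2:**
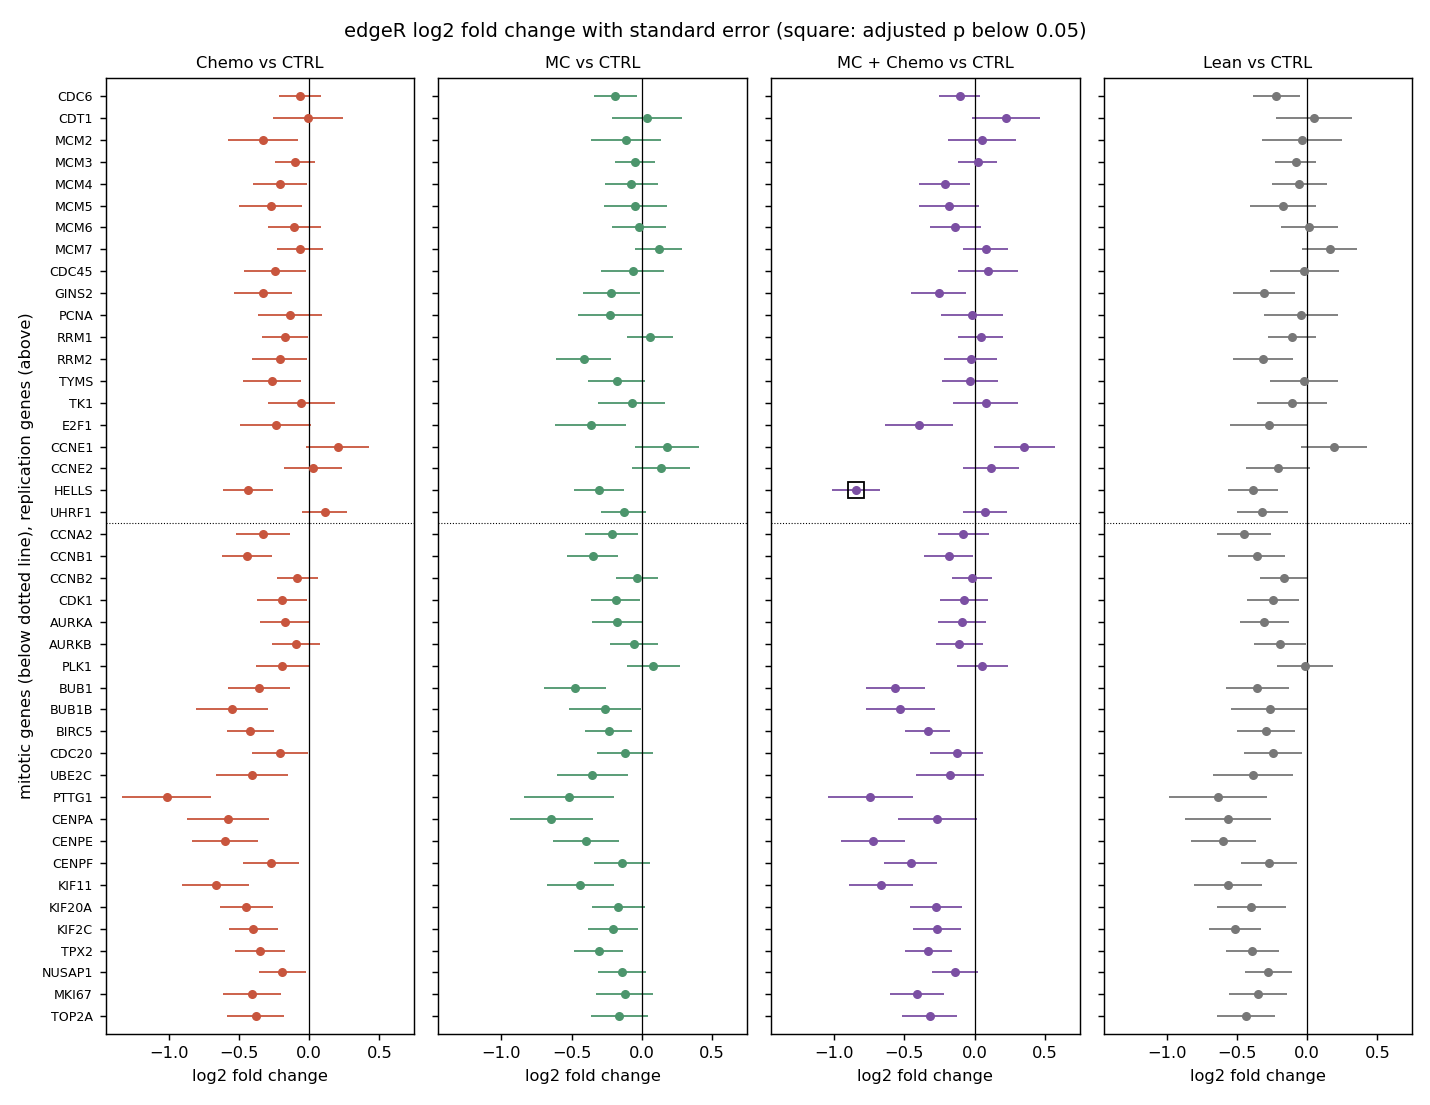
Log2 fold change against CTRL of each of the 43 genes (x axes) in Chemo, MC, MC + Chemo and Lean tumors, with replication genes above and mitotic genes below the dotted line. Points are edgeR estimates, bars are 1 SE, and a square marks an adjusted p below 0.05, which HELLS reached in MC + Chemo (-0.84) and no other gene reached.

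Few single genes passed the test. In Chemo, edgeR called 0 of 43 genes (0% of all genes in either direction) and DESeq2 also called 0 (1.52% of all genes higher and 2.35% lower). At an unadjusted p below 0.05, 9 of the 43 were lower by edgeR, 8 of them mitotic, when 10.4% of all genes were lower and 7.84% higher. In MC, edgeR called 0 of 43 (0% of all genes) and so did DESeq2 (0.088% higher and 0.0117% lower). At an unadjusted p below 0.05, 3 of the 43 were lower, against 5.93% of all genes lower and 4.79% higher.

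In MC + Chemo, edgeR called 1 of 43, HELLS, which was lower, when 1.5% of all genes were called lower and 0.59% higher. HELLS also met the further criteria of a mean count of 30 and a 1.5-fold change (1.14% of all genes lower and 0.456% higher). DESeq2 called HELLS and CENPE lower (4.01% of all genes lower and 3.16% higher), and 9 of 43 were lower at an unadjusted p below 0.05 by edgeR (13.5% lower and 9.19% higher). In Lean, edgeR called 0 of 43 (0% of all genes) and so did DESeq2 (0.0106% lower), and 6 were lower at an unadjusted p below 0.05 (4.31% lower and 2.77% higher). No gene of the 43 was higher at an unadjusted p below 0.05 in any of these 4 comparisons.

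A level lower in every tumor of the group than in every CTRL tumor was found for HELLS in MC + Chemo (2.6% of all genes lower in this way and 2.65% higher) and for HELLS, CENPE and NUSAP1 in Lean (1.08% lower and 1.13% higher). It was found for 0 of 43 genes in Chemo (1.33% lower and 1.92% higher) and for 0 of 43 in MC (0.724% lower and 0.748% higher).

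HELLS, a chromatin remodeler of the SNF2 family needed for DNA methylation of newly copied chromatin, fell in MC + Chemo. Its normalized count was 1185, 1010, 1174 and 916 in CTRL 17, 31, 44 and 70. In MC + Chemo the lowest tumor was at 447, the median at 593 and the highest at 813, so that every MC + Chemo tumor lay below every CTRL tumor. The log2 fold change was -0.84 (SE 0.17, adjusted p = 0.0305), and the exact permutation p was 0.00952, the smallest that 6 against 4 tumors can give. Groups without overlap always give this smallest value, so it adds nothing to the lack of overlap. The fold change stayed between -0.96 and -0.76 over 18 alternatives, but the adjusted p ran from 0.00158 to 0.205. The call was lost without CTRL 17 (0.104), without CTRL 44 (0.0802), without MC + Chemo 47 (0.0713), without MC + Chemo 52 (0.0592) and in a fit to the 2 groups alone (0.205). It was kept without MC + Chemo 5 (0.0426) and with that tumor placed in MC (0.0373).

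In the single treatments HELLS lay between CTRL and the combination. It was at 918, 857, 673, 771 and 777 in Chemo 19, 30, 33, 34 and 67, with 1 tumor above the lowest CTRL tumor. The difference from CTRL was -0.43 (SE 0.18, adjusted p = 0.204, exact permutation p = 0.0317). MC tumors 41, 42, 48 and 59 were at 750, 752, 749 and 813, whereas MC 6 was the highest of all 24 libraries at 1296, and the difference from CTRL was -0.30 (SE 0.18, adjusted p = 0.530, exact permutation p = 0.143). Lean tumors 3, 21, 24 and 54 were at 747, 782, 911 and 862, all below CTRL, with a difference of -0.38 (SE 0.18, adjusted p = 0.688, exact permutation p = 0.0286, the smallest that 4 against 4 can give). MC + Chemo was lower than Chemo by -0.41 (adjusted p = 0.389, exact permutation p = 0.0260) and lower than MC by -0.54 (adjusted p = 0.597, exact permutation p = 0.0173), and neither was called. The interaction of MC and Chemo for HELLS was -0.11 (SE 0.24, adjusted p = 0.876).

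The murine namesake, Hells, was counted in the same libraries. It was at 411, 342, 541 and 283 in CTRL 17, 31, 44 and 70, and from 173 to 450 in MC + Chemo with a mean of 241 ± 104 (SD, n = 6). The difference on the log2 scale was -0.75 with an exact permutation p of 0.0571, and MC + Chemo 25 at 450 overlapped with CTRL. Murine Hells differed from CTRL by -0.73 in MC (exact permutation p = 0.0476), -0.58 in Chemo (exact permutation p = 0.0635) and -0.54 in Lean (exact permutation p = 0.114). Murine Hells counts amounted to 23.8% to 40.2% of human HELLS counts. The log2 ratio of the 2 had an SD of 0.18 over the 24 libraries, the lowest among the 43 gene pairs (median 0.50, highest 0.85), and the log2 ratio of total human to murine counts had an SD of 0.30. How reads matching both genomes were assigned is not given in the sources used here, and the part of shared reads in the HELLS values was not tested.

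**Figure D3:**
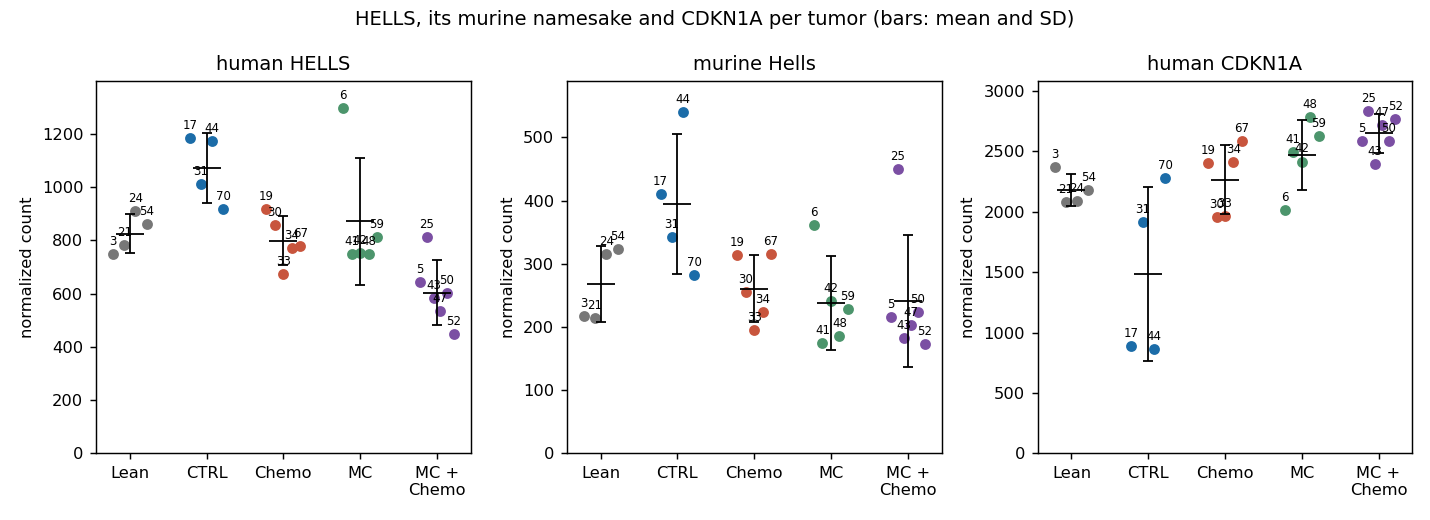
Normalized counts of human HELLS, murine Hells and human CDKN1A (y axes, from 0) in each tumor by group. Points carry the mouse number, and bars are the mean and SD. All 6 MC + Chemo tumors (447 to 813) lie below the 4 CTRL tumors (916 to 1185) for HELLS, and CTRL 17 and CTRL 44 (891 and 860) lie below all other tumors for CDKN1A.

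UHRF1, which reads hemimethylated DNA behind the replication fork and brings in the maintenance methyltransferase, did not follow HELLS in MC + Chemo. Its levels were 107, 127, 117 and 124 in CTRL, with a mean of 119 ± 8.96 (SD, n = 4), and 126 ± 21.4 in MC + Chemo (n = 6), a log2 fold change of 0.07 (SE 0.15, adjusted p = 0.816). In Lean tumors it was at 69.7, 91.5, 108 and 114, below CTRL by -0.32 (adjusted p = 0.727) with overlap.

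Origin licensing is the loading of the MCM helicase onto DNA in G1 by CDC6 and CDT1. Of these 8 genes, 8 were lower than in CTRL in Chemo, with log2 fold changes from -0.33 to -0.01 and adjusted p values of 0.492 or more. In MC + Chemo 4 were lower and 4 higher (-0.21 to 0.22), in MC 6 were lower (-0.19 to 0.12), and in Lean 5 were lower (-0.22 to 0.16). No licensing gene reached an unadjusted p below 0.05 in any of these comparisons.

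MCM2, a subunit of the helicase, was at 303, 283, 684.5 and 299 in CTRL 17, 31, 44 and 70, so that CTRL 44 alone stood high. In Chemo 19, 30, 33, 34 and 67 it was at 264.5, 258, 295, 281 and 474, with the last far above the rest. The log2 fold change in Chemo was -0.33 (SE 0.25, adjusted p = 0.492), and it was 0.09 without CTRL 44. The mean was 412 ± 72.9 in MC + Chemo (n = 6), 365 ± 76.8 in MC (n = 5) and 385 ± 142 in Lean (n = 4), against 392 ± 195 in CTRL (n = 4).

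CDC6, the loader itself, varied little. It was at 397, 332, 379 and 354 in CTRL, with a mean of 366 ± 28.5, and the other groups had means of 315 ± 60.2 (Lean), 323 ± 31.8 (MC), 344 ± 50.0 (MC + Chemo) and 352 ± 77.1 (Chemo). The largest difference from CTRL among these was -0.22 in Lean (exact permutation p = 0.171).

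At the fork, CDC45 and GINS2 complete the active helicase and PCNA is the clamp that holds the polymerase. All 3 were lower in Chemo (-0.33 to -0.14), MC (-0.23 to -0.07) and Lean (-0.31 to -0.02), and 2 of 3 were lower in MC + Chemo (-0.26 to 0.10). GINS2 was at 93.0, 109, 153 and 156 in CTRL and at 131, 94.0, 78.0, 96.3 and 114 in Chemo, and the difference was -0.33 (SE 0.20, adjusted p = 0.3955) with overlap of the groups.

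The enzymes of nucleotide supply are the ribonucleotide reductase subunits RRM1 and RRM2, thymidylate synthase (TYMS) and thymidine kinase (TK1). In MC + Chemo they were the group of genes closest to CTRL, with log2 fold changes from -0.03 to 0.08. They ran from -0.27 to -0.06 in Chemo, from -0.41 to 0.06 in MC and from -0.32 to -0.02 in Lean, and none was called.

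RRM2, the subunit whose level limits the reductase in S phase, was at 965, 532, 859 and 676 in CTRL 17, 31, 44 and 70. The MC tumors lay close together at 494, 575, 612, 546.5 and 632, and their difference from CTRL was -0.41 (SE 0.19, adjusted p = 0.457, exact permutation p = 0.111). In MC + Chemo the lowest was 586, the median 750 and the highest 893, a log2 fold change of -0.03 against CTRL. Against MC, RRM2 was higher in MC + Chemo by 0.39 (SE 0.18, adjusted p = 0.620, exact permutation p = 0.0173), with 1 MC + Chemo tumor inside the MC range. The interaction of MC and Chemo was 0.60 (SE 0.26, adjusted p = 0.511).

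TYMS was at 756, 535, 937 and 742 in CTRL and at 613, 462, 624, 508 and 907 in Chemo, with a difference of -0.27 (adjusted p = 0.505). In MC, tumor 6 was at 904 and the other 4 between 549 and 650. MC + Chemo tumors ranged from 590 to 929 with a mean of 734 ± 144, close to 742 ± 164 in CTRL.

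E2F1, the activator of S phase genes, and the E cyclins, which drive CDK2 at the G1 to S transition, did not move together. E2F1 was at 244, 237, 490 and 152 in CTRL 17, 31, 44 and 70, with CTRL 44 the highest of all libraries. It was at 183, 269.5, 203, 191 and 252 in MC, and in MC + Chemo it ranged from 147 to 279. The log2 fold change was -0.36 (SE 0.25, adjusted p = 0.597) in MC and -0.40 (SE 0.24, adjusted p = 0.339) in MC + Chemo. Both changed sign without CTRL 44, to 0.08 and 0.05. CCNE1 was at 43.7, 72.5, 124 and 69.5 in CTRL, and at 75.3, 100 and 125 (lowest, median and highest) in MC + Chemo, a difference of 0.35 (SE 0.22, adjusted p = 0.3415). CCNE1 was also above CTRL in Chemo (0.20), MC (0.18) and Lean (0.19), again without a call and with overlap in every group.

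Among the mitotic genes, those of the centromere and kinetochore lay farthest below CTRL by the median of their role. The median log2 fold change over these 3 genes was -0.58 for Chemo, -0.45 for MC + Chemo, -0.40 for MC and -0.57 for Lean. Over the 5 spindle genes the medians were -0.40, -0.28, -0.21 and -0.40 in that order. Over the 3 cyclins and CDK1 they were -0.26, -0.08, -0.20 and -0.30. The plot of fold changes shows the wide SE of these estimates.

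CENPE, the kinesin that carries chromosomes to the spindle equator, was at 2625 in CTRL 17 and at 1388, 1304 and 1258 in CTRL 31, 44 and 70. In MC + Chemo it was at 665 (lowest), 1020 (median) and 1267 (highest), so that 1 tumor overlapped with CTRL. The difference was -0.72 (SE 0.23, adjusted p = 0.0771, exact permutation p = 0.0190), DESeq2 gave an adjusted p of 0.0499, and the adjusted p ran from 0.0443 to 0.340 over 18 alternatives. Chemo tumors 19, 30, 33, 34 and 67 were at 1380, 1233, 627.5, 1041 and 1182 (-0.60, SE 0.24, adjusted p = 0.192). Lean tumors 3, 21, 24 and 54 were closely spaced at 1104, 1100, 1066 and 1095, all below the 4 CTRL tumors (-0.60, SE 0.23, adjusted p = 0.685, exact permutation p = 0.0286). Without CTRL 17 the fold changes were -0.28 in Lean, -0.29 in Chemo and -0.41 in MC + Chemo.

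CENPA, the histone variant that marks the centromere, was at 235 and 236 in CTRL 17 and 44 and at 103 and 130 in CTRL 31 and 70. MC tumors 6, 41, 42, 48 and 59 were at 74.4, 114, 169, 93.8 and 111, a difference of -0.65 (SE 0.29, adjusted p = 0.456, exact permutation p = 0.127). MC + Chemo tumors ranged from 109 to 187, and the interaction of MC and Chemo was 0.96 (SE 0.40, adjusted p = 0.511), the largest of the 43 and not called.

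**Figure D4:**
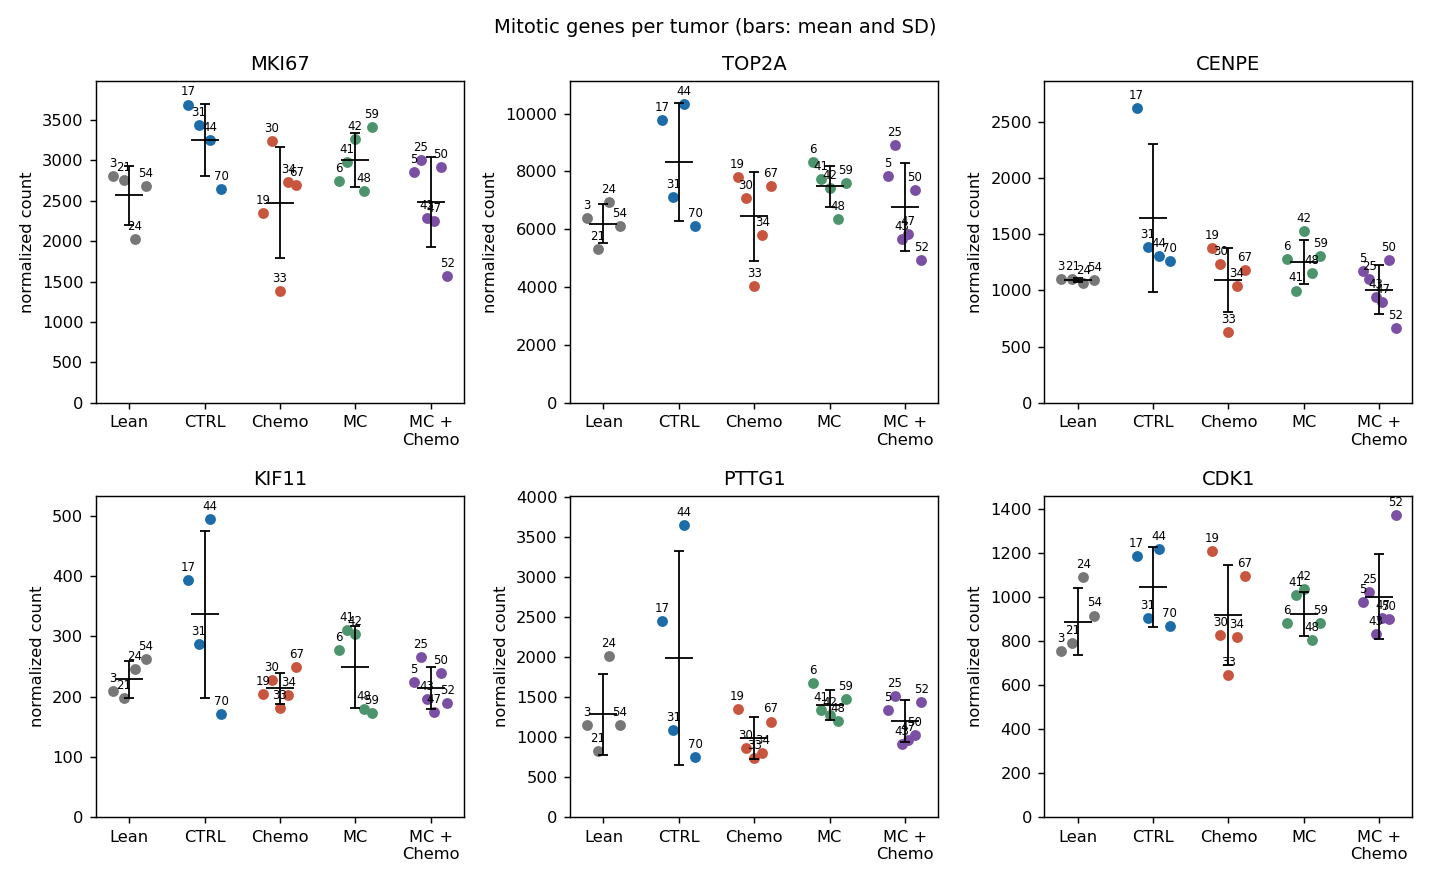
Normalized counts (y axes, from 0) of MKI67, TOP2A, CENPE, KIF11, PTTG1 and CDK1 in each tumor by group, with mouse numbers at the points and bars for the mean and SD. CTRL 17 and CTRL 44 are high for KIF11 (393 and 495) and PTTG1 (2448 and 3650.5), while MC + Chemo 52 is the lowest of its group for MKI67 (1564) and the highest of all for CDK1 (1374).

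KIF11, the motor that pushes the spindle poles apart, was at 393, 288, 495 and 172 in CTRL 17, 31, 44 and 70. The 5 Chemo tumors lay between 182 and 249, and the MC + Chemo tumors between 174 and 266, so that CTRL 70 was below all of them and the other CTRL tumors above. The differences were -0.67 (SE 0.24, adjusted p = 0.160, exact permutation p = 0.143) in Chemo and -0.66 (SE 0.23, adjusted p = 0.0982, exact permutation p = 0.114) in MC + Chemo. Without CTRL 70 both passed the test, with adjusted p = 0.0282 in Chemo and 0.0201 in MC + Chemo. The ranges of adjusted p over the alternatives were 0.0282 to 0.482 and 0.0201 to 0.367.

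KIF2C, a kinesin that takes apart microtubule ends, was at 801, 438.5, 594 and 540 in CTRL and at 416, 354, 514 and 386 in Lean (-0.51, SE 0.19, adjusted p = 0.685, exact permutation p = 0.0571). The groups overlapped by 1 Lean tumor above CTRL 31. TPX2, which activates AURKA on the spindle, and KIF20A, a motor of the midzone, had log2 fold changes from -0.39 to -0.31 and from -0.45 to -0.17 in the 4 groups. NUSAP1, which binds spindle microtubules, ran from -0.28 to -0.14.

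PTTG1, or securin, the inhibitor of separase until anaphase, had the largest difference of the 43 genes in Chemo. It was at 2448, 1089, 3650.5 and 758 in CTRL 17, 31, 44 and 70. Chemo tumors 19, 30, 33, 34 and 67 were at 1348, 864, 742, 802.5 and 1195, a log2 fold change of -1.02 (SE 0.32, adjusted p = 0.120). The exact permutation p on the log2 levels was 0.222, since CTRL 31 and CTRL 70 lay within the range of the Chemo tumors. Only CTRL 17 and CTRL 44 stood above that range. The call appeared without CTRL 31 (adjusted p = 0.0270) and without CTRL 70 (0.0223), and over the alternatives the adjusted p ran from 0.0223 to 0.454. PTTG1 differed by -0.74 in MC + Chemo, -0.52 in MC and -0.63 in Lean. UBE2C and CDC20, the ubiquitin carrier and the activator of the anaphase-promoting complex, ran from -0.41 to -0.18 and from -0.24 to -0.12.

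BUB1, a kinase of the spindle checkpoint, was at 405, 241, 394.5 and 258 in CTRL. It was at 262.5, 256.5, 276, 186 and 190 in MC (-0.48, SE 0.22, adjusted p = 0.456) and at 150 (lowest), 223 (median) and 297.5 (highest) in MC + Chemo (-0.57, SE 0.21, adjusted p = 0.119), with overlap in both. Its partner BUB1B differed by -0.55 in Chemo and -0.53 in MC + Chemo, with adjusted p values of 0.265 and 0.205. AURKA, AURKB and PLK1, the kinases of spindle assembly, chromosome alignment and mitotic entry, were nearer to CTRL, from -0.30 to 0.08 over the 4 groups. BIRC5, or survivin, which works with AURKB in the passenger complex, ran from -0.42 to -0.24.

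CCNB1, the cyclin of mitotic entry, was at 962, 636, 1003 and 809 in CTRL and at 759, 665, 777, 563 and 595 in MC (-0.35, SE 0.18, adjusted p = 0.4875). It differed by -0.44 in Chemo (adjusted p = 0.207), -0.36 in Lean and -0.18 in MC + Chemo, and the interaction of MC and Chemo was 0.61 (SE 0.24, adjusted p = 0.511). CCNA2, the cyclin of S phase and G2, was at 601.5, 389, 511 and 338 in CTRL and at 316, 299, 356 and 382 in Lean (-0.45, SE 0.19, adjusted p = 0.685). CCNB2 ran from -0.16 to -0.02 and CDK1, the kinase these cyclins activate, from -0.24 to -0.08.

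MKI67, the antigen used to score proliferation in breast tumors, was at 3690, 3439, 3251 and 2643 in CTRL 17, 31, 44 and 70. In MC + Chemo it was at 1564 (lowest), 2572 (median) and 3008 (highest), a difference of -0.41 (SE 0.19, adjusted p = 0.216, exact permutation p = 0.0476). In Chemo it was at 2342, 3234, 1379, 2729 and 2699 (-0.41, adjusted p = 0.2925), in MC it was 3004 ± 334 (-0.12, adjusted p = 0.839) and in Lean 2567 ± 362 (-0.35, adjusted p = 0.744). All 4 groups overlapped with CTRL.

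TOP2A, the topoisomerase that untangles chromosomes and the target of doxorubicin, was at 9768.5, 7100.5, 10336 and 6124 in CTRL 17, 31, 44 and 70. Chemo tumors were at 7810, 7094, 4051, 5798 and 7495 (-0.38, SE 0.20, adjusted p = 0.322, exact permutation p = 0.159). Means were 6188 ± 676 in Lean (-0.44), 6760 ± 1522 in MC + Chemo (-0.32) and 7491.5 ± 710 in MC (-0.16), with no call and with overlap in each.

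Within groups, the mitotic genes did not always move as 1 set. MC + Chemo 52 had the lowest MKI67 of its group (1564) and a low CENPE (665), but the highest CDK1 of all 24 libraries (1374) and the highest CCNA2 (636). Chemo 33 had the lowest MKI67 (1379) and TOP2A (4051) of all libraries, and also the lowest CDK1 (648). These tumors were singled out after their values were seen. The log2 ratio of CDK1 to MKI67 was -0.19 in MC + Chemo 52 and from -1.97 to -0.89 in the other 23 libraries. In the host, MC + Chemo 52 was at 379 for Ptprc, 254 for Pecam1 and 7069 for Adipoq, the lowest, second lowest and highest of all libraries. Its Cd68, a macrophage marker, was not low, at 1106 against 344 (MC 6) to 1275 (CTRL 17) in the other libraries. The part of these host differences in its human levels was not tested.

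The addition of MC to chemotherapy and of chemotherapy to MC gave small differences. MC + Chemo was above Chemo in 14 of 20 replication genes (median 0.12) and in 18 of 23 mitotic genes (median 0.08), when 51.3% of all genes were higher. Against MC, 11 of 20 replication genes were higher (median 0.08) and 15 of 23 mitotic genes lower (median -0.05), when 51.4% of all genes were lower. The interaction is the effect of chemotherapy on the MC diet less that without MC. It was above 0 in 16 of 20 replication genes (median 0.17) and 22 of 23 mitotic genes (median 0.28), when 49.5% of all genes were. The effect without MC is Chemo against CTRL, so a high level in the CTRL tumors raises the interaction of a gene. The part of the CTRL tumors with the highest mitosis levels in these interaction counts was not tested. Genes of a list vary together within a tumor, so these counts also carry no test. None of the 43 was called by edgeR or DESeq2 in these 3 comparisons, and at an unadjusted p below 0.05 edgeR gave HELLS in MC + Chemo against Chemo, HELLS and RRM2 against MC, and CCNB1, CENPA and RRM2 for the interaction. In each, edgeR called 0% of all genes, and DESeq2 called 0.107% lower in the first, 0.0053% higher and 0.0371% lower in the second and 0.0053% in each direction for the interaction. At an unadjusted p below 0.05, 3.29% of all genes were higher and 7.13% lower against Chemo, 3.3% and 4.64% against MC, and 5.81% and 3.93% for the interaction.

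Genes of the same pathways outside the list were counted in the same way. Of 54 other mitotic genes, 54 were below CTRL in Lean (median -0.37), 53 in Chemo (median -0.41), 52 in MC (median -0.35) and 51 in MC + Chemo (median -0.33). The lowest fold change among the 54 was -0.70 in Lean, -0.79 in Chemo, -0.62 in MC and -0.92 in MC + Chemo. Of 39 other replisome and origin genes, 31 (median -0.10), 28 (median -0.15), 32 (median -0.08) and 27 (median -0.11) were lower in the same order. Of the 93 genes of these 2 lists, edgeR called 1, lower in MC + Chemo, when 1.5% of all genes were called lower there. At an unadjusted p below 0.05, 15, 18, 12 and 20 of the 54 mitotic genes were lower in Lean, Chemo, MC and MC + Chemo. Of the 39 replisome and origin genes 1, 4, 2 and 3 were, and of all genes 4.31%, 10.4%, 5.93% and 13.5%. Higher at this p were 2 of the 39, in MC + Chemo (9.19% of all genes), and 0 of the 54 in any group. DESeq2 called 8 of the mitotic and 1 of the replisome genes lower in MC + Chemo (4.01% of all genes) and 3 and 1 lower in Chemo (2.35%). The gene called by edgeR was CIT, the citron kinase of cytokinesis, which fell from 397.5 ± 95.9 in CTRL to 213 ± 70.5 (-0.92, SE 0.24, adjusted p = 0.0474), with MC + Chemo 25 overlapping with CTRL. Its adjusted p ran from 0.0149 to 0.205 over 18 alternatives, and the call was lost in 11 of them. Among these were leaving out CTRL 17, CTRL 44 or MC + Chemo 5 (adjusted p = 0.0565 for the last).

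Among the 17 other regulators of the E2F, RB and MYB-FOXM1 families that were tested, edgeR called 0 in any comparison with CTRL. At an unadjusted p below 0.05, 2 were lower in Lean, 1 in Chemo, 1 in MC and 3 in MC + Chemo, and 0 were higher. Over all genes the shares lower were 4.31%, 10.4%, 5.93% and 13.5% in that order, and the shares higher 2.77%, 7.84%, 4.79% and 9.19%. DESeq2 called E2F7 lower in Chemo (2.35% of all genes) and E2F7 and RBL1 lower in MC + Chemo (4.01%). E2F7, a repressor of E2F target genes, had the largest difference of the 17 and is named after its values were seen. It was at 943, 232, 843 and 267 in CTRL 17, 31, 44 and 70 and at 87.6 (lowest), 213 (median) and 309 (highest) in MC + Chemo, so that only CTRL 17 and CTRL 44 stood above all MC + Chemo tumors. The difference was -1.52 (SE 0.40, adjusted p = 0.0518, range over 18 alternatives 0.0126 to 0.205), and it was -1.17 without CTRL 17 and -1.23 without CTRL 44. E2F7 passed the test in 5 of these alternatives, DESeq2, the fit to all 24 libraries, and the fits without CTRL 31, CTRL 70 or MC + Chemo 25. E2F7 differed by -1.39 in Chemo, -1.01 in MC and -0.99 in Lean. FOXM1 differed from CTRL by -0.17 in Lean, -0.11 in Chemo, -0.05 in MC and 0.04 in MC + Chemo, and MYBL2 by 0.18, 0.08, 0.04 and 0.08. Both are activators of mitotic genes.

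Of 12 G1 cyclins, CDKs and CDK inhibitors, edgeR called 2 higher in MC + Chemo (0.59% of all genes) and 0 in the other groups. The highest fold change among the 12 was 0.82 in MC + Chemo, 0.60 in Chemo, 0.72 in MC and 0.68 in Lean. At an unadjusted p below 0.05, 2 of the 12 were higher and 2 lower in MC + Chemo (9.19% and 13.5% of all genes). The counts were 2 and 4 in Chemo (7.84% and 10.4%), 1 and 1 in MC (4.79% and 5.93%), and 2 and 1 in Lean (2.77% and 4.31%). DESeq2 called 2 higher in MC + Chemo (3.16%) and 1, CCND3, higher in Chemo (1.52%). CDKN1A, or p21, the inhibitor of CDKs that p53 and other signals induce, was at 891, 1912, 860 and 2276.5 in CTRL 17, 31, 44 and 70 and at 2393 to 2833 in MC + Chemo, without overlap (0.82, SE 0.21, adjusted p = 0.0496). CTRL 17 and CTRL 44 were the lowest of all 24 libraries for CDKN1A and the highest for the mitosis level. The CDKN1A call was lost in 13 of 18 alternatives (adjusted p from 0.0101 to 0.213), with fold changes of 0.63 without CTRL 17 and 0.65 without CTRL 44. It was also lost without MC + Chemo 5 (adjusted p = 0.0696) and with that tumor placed in MC (0.05485). CCND3, a D cyclin, rose from 888 ± 222 to 1445 ± 201 (0.69, SE 0.15, adjusted p = 0.0327), and the call was lost in 5 of 18 alternatives (0.00199 to 0.205), the same 5 that ended the HELLS call. The CCND3 call was kept without MC + Chemo 5 (adjusted p = 0.04695). CCND1, the D cyclin common in breast cancer, differed by -0.24 (adjusted p = 0.4465) in MC + Chemo and -0.45 (adjusted p = 0.219) in Chemo.

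Of 21 repair and checkpoint genes of S and G2 phase, 17 were lower in MC + Chemo (median -0.31), 14 in Chemo (median -0.12), 19 in MC (median -0.21) and 18 in Lean (median -0.20). Over all genes the shares lower were 52.5%, 52.3%, 53.1% and 52.5% in that order, and these counts also carry no test. The lowest fold change among the 21 was -0.93, -0.66, -0.46 and -0.57 in the same order. By edgeR 1 of the 21 was called, lower in MC + Chemo (1.5% of all genes). At an unadjusted p below 0.05, 8 were lower and 2 higher in MC + Chemo (13.5% and 9.19% of all genes). The counts were 3 and 1 in Chemo (10.4% and 7.84%), 2 and 1 in MC (5.93% and 4.79%), and 3 and 0 in Lean (4.31% and 2.77%). DESeq2 called ATR, ATM and WEE1 lower in MC + Chemo (4.01%), and WEE1 lower and PKMYT1 higher in Chemo (2.35% lower and 1.52% higher). ATR, the kinase that responds to stalled forks, fell in MC + Chemo from 287 ± 36.4 to 195 ± 25.2 (-0.58, SE 0.14, adjusted p = 0.0393, range over alternatives 0.00757 to 0.205). The ATR call was lost in 9 of 18 alternatives, among them leaving out CTRL 17, CTRL 44 or MC + Chemo 5 (adjusted p = 0.0516 for the last). In the human table, 9 genes that mark host blood, muscle, vessel and fat cells summed to between 420 and 610 normalized counts per tumor for CTRL, 481 and 571 for Lean, 371 and 788 for Chemo, 303 and 3424 for MC, and 340 and 3755 for MC + Chemo, and none of the 9 was at 0 in all tumors of a group. The medians of these sums were 537 in CTRL, 534 in Lean, 603 in Chemo, 573.5 in MC and 556 in MC + Chemo. On the murine scale the muscle gene Acta1 was at 10511 in MC + Chemo 5 and 18509 in MC + Chemo 43. The other MC + Chemo tumors were at 11.3 to 655 for Acta1, and MC 41 was at 12262. In MC + Chemo, edgeR called 1 of these 9 higher (0.59% of all genes) and DESeq2 called 4 higher (3.16%), HBB, MYH4, ACTA1 and CKM. The one called by edgeR was HBB, beta globin (2.80, adjusted p = 0.0434, range over alternatives 0.00368 to 0.205, lost in 8 of 18). The HBB call was lost without CTRL 17, without CTRL 44 and without MC + Chemo 5 (adjusted p = 0.0550 for the last), among others. VIM, the intermediate filament of mesenchymal cells, was called lower in MC + Chemo (-1.78, SE 0.46, adjusted p = 0.0481, range over alternatives 0.00747 to 0.212, lost in 13 of 18). Over the 6 cell line markers, of which VIM is 1, the lowest fold change was -2.31 in Chemo, -1.345 in MC and -1.23 in Lean. In those groups edgeR called 0 of the 6, and DESeq2 called 1 lower in Chemo (2.35% of all genes). The VIM call was lost without CTRL 17, without CTRL 44 and without MC + Chemo 5 (adjusted p = 0.0522 for the last), among others. The part of these reads in the values of the 43 genes was not tested.

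How far the medians depended on single CTRL tumors differed between the 2 sets. Without CTRL 44 the median of the replication genes was 0.13 in Lean, 0.04 in Chemo, 0.10 in MC and 0.11 in MC + Chemo, above 0 in all 4, and 8, 9, 8 and 4 of 20 genes were lower. The median of the mitotic genes stayed below 0 with any CTRL tumor left out, from -0.47 to -0.25 in Lean, -0.47 to -0.26 in Chemo, -0.29 to -0.08 in MC and -0.38 to -0.10 in MC + Chemo. Each of these fits kept CTRL 17 or CTRL 44, the tumors with the highest mitosis levels (10.09 and 10.12). Only CTRL 44 was high in the replication level. Leaving out 1 tumor therefore cannot show how the mitotic medians depend on these tumors together, and this was not tested. Without CTRL 44, the mitotic genes that were lower numbered 21, 21, 17 and 16 of 23 in that order.

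**Figure D5:**
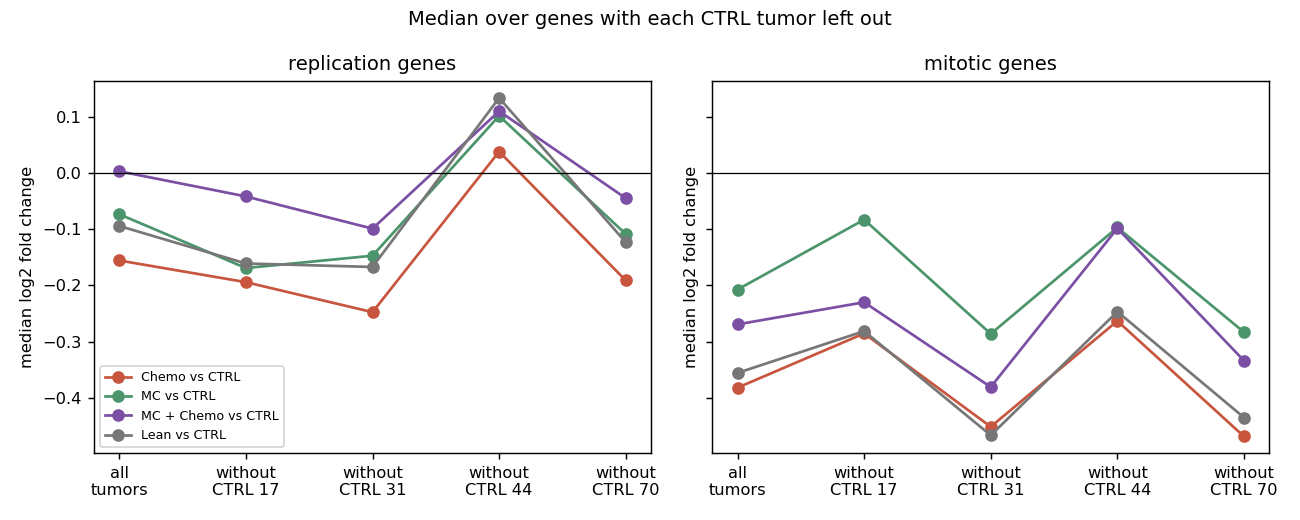
Median log2 fold change against CTRL (y axis) over the 20 replication genes and the 23 mitotic genes, with all tumors and with each CTRL tumor left out (x axis), for the 4 groups. The replication medians rise above 0 without CTRL 44 (0.04 to 0.13), and the mitotic medians remain below 0 at each step (-0.47 to -0.08).

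The murine namesakes of all 43 genes were in the murine table and summed to a median of 16.2% of the human counts, from 1.61% for AURKA to 77.1% for MCM6. In single libraries the share reached 162% for MCM6, 107% for CENPA and 88.7% for PTTG1. The part of reads matching both genomes was not tested for any of these genes. Host Mki67 was at 176 ± 33.6 in CTRL, 175 ± 29.1 in Lean, 126 ± 38.0 in Chemo, 112 ± 23.5 in MC and 85.1 ± 36.5 in MC + Chemo, on the murine scale. The namesakes did not move as 1 set. In CTRL and MC + Chemo, Top2a was at 1139 ± 597 and 658.5 ± 341, Rrm1 at 515 ± 151 and 513.5 ± 230, and Pttg1 at 361 ± 66.3 and 441 ± 88.5. Apart from Hells, these host levels were not tested.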

How the data were processed

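Tumor RNA was made into Lexogen QuantSeq 3′ libraries and sequenced as 50 bp forward reads. The authors deposited raw counts per gene for the human and the murine genome and DESeq2-normalized counts, a signal that equals the raw counts divided by median-of-ratios size factors over 24 libraries (largest relative deviation 8.3e-15). The submitters' processing notes name GRCm38 and DESeq2 1.22.2. The human build and the handling of reads matching both genomes are not given in the sources used here.

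Raw human counts were tested with edgeR 4.0.16 (limma 3.58.1, R 4.3.3): TMM scaling, filterByExpr, the quasi-likelihood F test and Benjamini-Hochberg adjustment over all genes tested. The 20 libraries of the 4 high-fat groups were fitted together, and the Lean comparison came from a fit of 24. DESeq2 1.42.0 was an alternative. Single genes also had two-sided exact permutation tests on log2(normalized count + 1). The permutation p values were not adjusted over genes, and most genes given them were chosen by their edgeR p in the same libraries. The scripts were tested on simulated data. Alternatives were scaling, filter, groups fitted, human share as a covariate, placement of MC + Chemo 5, and leaving out libraries. None of 47 within-group pairs were identical libraries.

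The genes and lists were chosen with earlier results of these data known. Values in every library were given for called genes, for the 3 replication and 3 mitotic genes with the smallest unadjusted p in each comparison with CTRL, and for MKI67, TOP2A, RRM2, CDC6, TYMS and MCM2. Genes of other lists were named when called against CTRL, and FOXM1, MYBL2, CDKN1A and CCND1 in any case. The alternatives for CIT, ATR, CCND3, CDKN1A, HBB, VIM and E2F7 were added after their values were seen. Library totals limit the precision of low genes.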

Additional observations from a re-analysis of the deposited data

Results flagged for a closer look

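Of 110 groups of 4 to 6 tumors checked for 1 value far from the rest, 7 had one, and chance alone gives about 1 in 20. MCM2 was at 684.5 normalized counts in CTRL 44 against 282.6 to 303.5 in the other CTRL tumors, and at 473.7 in Chemo 67 against 257.5 to 295.1 in the other Chemo tumors. CENPE was at 2625 in CTRL 17 against 1258 to 1388 in the other CTRL tumors. HELLS was at 1296 and TYMS at 903.9 in MC 6, against 748.6 to 813.5 and 548.6 to 650 in the other MC tumors. MKI67 was at 2029 in Lean 24 against 2678 to 2803 in the other Lean tumors, and CCNA2 was at 636.2 in MC + Chemo 52 against 342.1 to 444.9 in the other tumors of that group.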

How the results depend on the processing

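The number of the 43 genes called in MC + Chemo against CTRL, 1 as reported, was 2 with DESeq2 and 2 with all 24 libraries in 1 fit (HELLS and CENPE), and 0 with the 2 groups alone. It ran from 0 to 4 when 1 tumor was left out: 0 after removal of CTRL 17, of CTRL 44, of MC + Chemo 47 or of MC + Chemo 52, 2 without CTRL 31 (HELLS and CENPE) and 4 without CTRL 70 (CENPE, HELLS, KIF11 and PTTG1). In Chemo against CTRL it ran from 0 to 2, with 1 without CTRL 31 (PTTG1) and 2 without CTRL 70 (KIF11 and PTTG1). The median of the replication genes in Lean ran from -0.29 to 0.13, the latter without CTRL 44. Without CTRL 44 the fold change changed sign for MCM2 in Chemo (-0.53 to 0.0901 over the tumors left out), for E2F1 in MC (-0.57 to 0.0805) and for E2F1 in MC + Chemo (-0.60 to 0.0525). The cause was not tested. Of the values that answer a comparison, 391 were counted as the same and 12 as moved. For a median, the same meant a change smaller than the pooled SD of the level (0.22 for replication, 0.23 for mitosis), whatever its sign. The replication medians of Chemo and MC changed sign without CTRL 44 and still counted as the same. For counts of called genes, the same meant an equal count or one within a fixed ratio. Of the values for single genes, 466 kept their direction and side of the threshold, 64 lost a call, 13 gained one and 3 changed sign. No paired analysis was possible because no mouse number occurs in more than 1 group. With 4 CTRL tumors that differ among themselves, each comparison with CTRL rests on few libraries.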
